A study of Solanum lycopersicum with 6 samples.

Results

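The genes of the small RNA silencing machinery examined here are a list of 10 tomato genes. They are 6 Dicer-like genes (*DCL1*, *DCL2a*, *DCL2b*, *DCL2d*, *DCL3* and *DCL4*), the RNA-dependent RNA polymerase genes *RDR1* and *RDR6*, and the genes of the largest subunits of RNA polymerase IV (*NRPD1*) and RNA polymerase V (*NRPE1*). They were given by identifier, with no threshold on expression, but earlier results of these data were known when they were chosen. Of the 10, 8 were found in the count table of 35821 genes, and 7 of these had enough counts to be tested among 20154 genes. *DCL1* and *NRPD1* were not analysed here. Leaf RNA-seq compared 3 biological replicates of the wild type (WT), tomato cultivar M82, with 3 of the *kyp* mutant in the same cultivar. In both genotypes the fourth leaf of 4-week-old plants was taken, grown without further treatment at 24 °C with 16 h of light per day. KRYPTONITE (KYP) is a histone methyltransferase that deposits H3K9me2, a mark of silent chromatin, and the mutant was used for its defect in this deposition. The allele carried by *kyp* is not given in the labels, no further mutant line was analysed here, and no source used here pairs *KYP* with an identifier, so its own counts are not reported.

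Dicer-like proteins cut double-stranded RNA into small RNAs. In *Arabidopsis*, DCL1 makes microRNAs, DCL4 and DCL2 make the small interfering RNAs that act against viruses and transgene transcripts, and DCL3 makes those that guide DNA methylation. RDR1 and RDR6 copy single-stranded RNA into double strands for Dicer. Pol IV transcribes the precursors of the DNA methylation pathway, and Pol V makes the scaffold transcripts to which the small RNAs bind. This pathway and KYP act on the same kind of target, transposons and repeats, where H3K9me2 maintains non-CG methylation together with chromomethylases.

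The libraries held 8925379 to 11012421 counts in WT and 7283885 to 10091231 in *kyp*. Levels are given as CPM, the counts of a gene divided by the scaled library total in units of 1000000 counts. TMM, the trimmed mean of M-values, sets the libraries to a common scale, and its factors lay between 0.964 and 1.03. A floor of 3 counts equalled 0.264 to 0.422 CPM and covers counting error only. All 8 plastid genes looked up as markers of photosynthetic tissue, *rbcL* and *psbA* among them, had counts in every library. Their summed counts were 37744 to 49537 in WT and 24469 to 36397 in *kyp*, and most of these came from *atpB*, with 34788 to 44531 in WT and 23085 to 33578 in *kyp*. All plastid genes together took 0.652% to 0.881% of the counts in WT and 0.552% to 0.621% in *kyp*, and the part of this difference in the results below was not tested. RNA was taken from whole leaves, in which fewer cells of a type and less RNA per cell cannot be told apart.

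The identifiers of the *DCL2* genes need care. The RefSeq gene table of assembly SLM_r2.1 holds the symbols of all 6 Dicer-like genes, on the chromosomes that their identifiers name, but pairs none with an identifier. *DCL2a* carries an identifier of chromosome 6. On chromosome 11 the RefSeq table lists *DCL2b*, *DCL2d* and *DCL2c* in this order with no gene between them, and the count table lists Solyc11g008520, Solyc11g008530 and Solyc11g008540 next to each other. The list used here names Solyc11g008540 *DCL2b* and Solyc11g008520 *DCL2d*. *DCL2d* is in the middle of the RefSeq order, whereas Solyc11g008530 is in the middle of the identifiers. Solyc11g008520 is therefore called by its identifier below. Solyc11g008530, which is not on the list, is described beside it because of its place between them, and no sequence or annotation used here identifies it as a *DCL2* gene.

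*DCL2b* rose 3.78-fold in *kyp*, Solyc11g008530 rose 9.99-fold, and Solyc11g008520 went from 2 counts in all WT libraries together to 33 in *kyp*. *RDR1* rose 1.45-fold and *RDR6* fell 1.37-fold, both close to the threshold. *DCL2a*, *DCL3*, *DCL4* and *NRPE1* did not pass the test. By edgeR's quasi-likelihood test with Benjamini-Hochberg adjustment over all tested genes, the adjusted p was under 0.05 for 3 of the 7 tested genes, 2 higher and 1 lower in *kyp*. Over all tested genes it was under 0.05 for 24.9%, with 14.8% higher and 10.2% lower. The median log2 fold change was -0.04 over the 7 genes and -0.0070 over all tested genes. Levels did not overlap between the genotypes in 3 of the 7 genes, against 42.5% of all tested genes. With 7 genes these counts are too small to be read as a difference from the background. A change of at least 2-fold that also passed the test was found for *DCL2b* alone among the 7, against 8.74% of all tested genes higher and 2.93% lower. *DCL2b* was ranked 67 of 20154 by its p, and 4.52% of the tested genes had a higher log2 fold change.

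**Figure D1:**
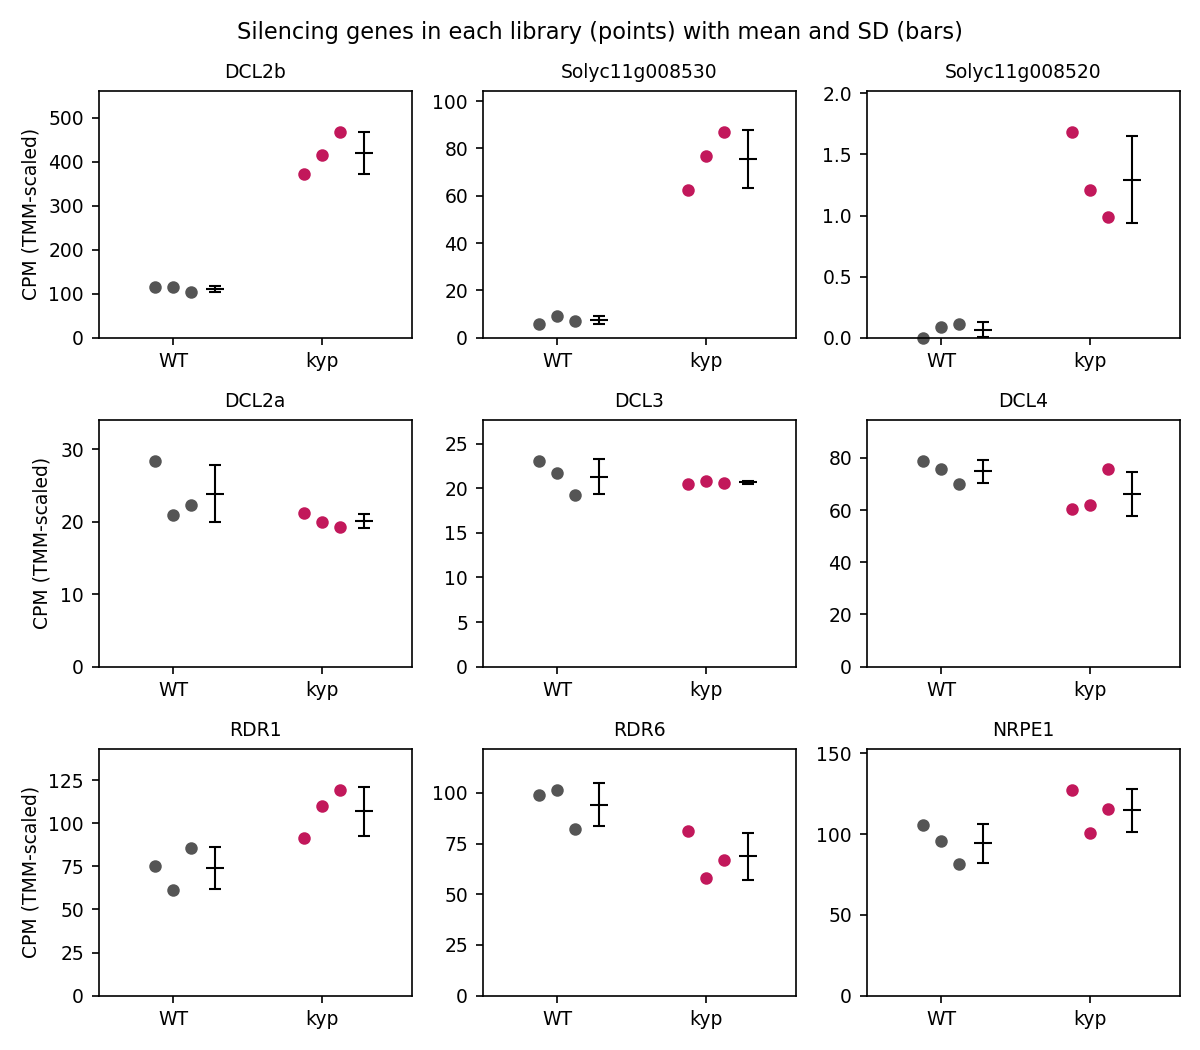
TMM-scaled CPM (vertical axes, from 0) of the 8 genes found in the count table and of Solyc11g008530 in the 3 WT and 3 *kyp* libraries, with each point a library and each bar the mean with its SD. *DCL2b* lay between 103 and 115 CPM in WT and between 373 and 469 CPM in *kyp*, whereas the points of *DCL2a*, *DCL3*, *DCL4* and *NRPE1* overlapped between genotypes.

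*DCL2b* (Solyc11g008540.3) encodes a Dicer-like protein of the DCL2 type, which in tomato takes part in antiviral defense. It had 1055, 1304 and 924 counts in the 3 WT libraries and 2654, 3798 and 4738 in the 3 *kyp* libraries. These equal 115, 115 and 103 CPM in WT and 373, 417 and 469 CPM in *kyp*. The lowest *kyp* library was thus above the highest WT library by more than the whole range of either genotype. The mean level was 111 ± 6.93 CPM (SD, n = 3) in WT and 419 ± 47.9 CPM in *kyp*. Its log2 fold change was 1.92 ± 0.11 (SE), with a 95% interval from 1.66 to 2.17 and edgeR gave an adjusted p of 2.12e-05. Non-overlap in the direction of *kyp* was found for 21.9% of all tested genes.

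Solyc11g008530.3 had fewer counts and a larger change. It had 54, 106 and 65 counts in the WT libraries and 445, 699 and 880 in the *kyp* libraries. These equal 5.91, 9.33 and 7.25 CPM in WT and 62.5, 76.7 and 87.0 CPM in *kyp*. All 3 *kyp* libraries were far above the WT libraries. The mean rose from 7.50 ± 1.73 CPM (SD, n = 3) to 75.4 ± 12.3 CPM. In *kyp* against WT the log2 fold change was 3.32 ± 0.19 (SE), from 2.89 to 3.75 at 95%, and the adjusted p was 1.67e-05 (edgeR). Of all tested genes, 2.60% had a higher log2 fold change.

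Solyc11g008520.3 had 0, 1 and 1 counts in WT, at or under the floor in each library, and 12, 11 and 10 counts in *kyp*. In *kyp* these equal 1.69, 1.21 and 0.989 CPM, above the floor in each library but too low for edgeR's filter on low counts. The gene was therefore not tested in the main comparison. The rate of counts in *kyp* over WT was 18.5, with an exact conditional 95% interval of 4.72 to 159 that covers counting error only. Without the filter the log2 fold change was 3.98 with an adjusted p of 0.00177 (edgeR), among 27681 genes. A gene this low in WT is kept by a filter only through the group where it is high.

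*DCL2a* (Solyc06g048960.4), whose identifier is of chromosome 6, did not pass the test. It had 260, 238 and 200 counts in WT and 151, 182 and 195 in *kyp*, or 28.4, 21.0 and 22.3 CPM against 21.2, 20.0 and 19.3 CPM. The 2 groups overlapped, and the highest value was a WT library. The means were 23.9 ± 3.99 CPM (SD, n = 3) in WT and 20.2 ± 0.978 CPM in *kyp*. The log2 fold change was -0.24 with a 95% interval from -0.56 to 0.07 and an adjusted p of 0.236 (edgeR), so that levels from 0.678 to 1.05 times those of WT were within its error.

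Within a library, the ratio between 2 genes does not depend on library scaling, and its change between genotypes does not depend on gene length. A ratio itself, a share of counts and the change of a share in points do depend on gene length. The count of *DCL2b* was 4.06, 5.48 and 4.62 times that of *DCL2a* in WT and 17.6, 20.9 and 24.3 times in *kyp*. The share of *DCL2b* in the summed counts of *DCL2a*, *DCL2b* and Solyc11g008520 was 82.3% ± 2.15 (SD, n = 3) in WT and 95.1% ± 0.823 in *kyp*, and the share of *DCL2a* was 17.7% ± 2.18 and 4.62% ± 0.710. Solyc11g008520 held 0.0512% ± 0.0460 and 0.301% ± 0.114. In all 3 shares the genotypes did not overlap. With Solyc11g008530 added to the sum, a choice made after seeing the data, *DCL2b* held 77.9% ± 1.04 in WT and 81.2% ± 0.221 in *kyp*, and Solyc11g008530 held 5.28% ± 1.25 and 14.6% ± 0.796. The difference of 12.8 percentage points in the share of *DCL2b* became 3.31 points, since Solyc11g008530 rose more than *DCL2b*. The count of *DCL2b* was 19.5, 12.3 and 14.2 times that of Solyc11g008530 in WT and 5.96, 5.43 and 5.38 times in *kyp*, a change by a factor of 0.371. Sequences were not compared here. Reads that fit more than 1 gene could be lost or split in counting where genes of a family are alike, and their part in these values was not tested. The 3 rows of chromosome 11 summed into 1 gave 1109, 1411 and 990 counts in WT and 3111, 4508 and 5628 in *kyp*, a log2 fold change of 2.06 ± 0.12 (SE) with an adjusted p of 1.67e-05 (edgeR).

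*DCL3* (Solyc08g067210.3), the Dicer of the DNA methylation pathway, had 23.1, 21.7 and 19.2 CPM in WT and 20.5, 20.8 and 20.6 CPM in *kyp*. The *kyp* libraries lay within the range of WT. Its log2 fold change of -0.04, from -0.30 to 0.21 at 95%, had an adjusted p of 0.805 (edgeR). This was the smallest change of the tested genes of the list, and 89.6% of all tested genes had a larger one in either direction.

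*DCL4* (Solyc07g005030.4), the Dicer of secondary small interfering RNAs, had 721, 859 and 628 counts in WT and 431, 566 and 766 in *kyp*. These equal 78.9, 75.6 and 70.1 CPM in WT and 60.6, 62.1 and 75.8 CPM in *kyp*. The first 2 *kyp* libraries were below all WT libraries and the third was among them. Its log2 fold change was -0.18, from -0.42 to 0.07 at 95%, with an adjusted p of 0.276 (edgeR). DCL4 and DCL2 can act on the same double-stranded RNA, so their ratio was also taken, after the values had been seen. The count of *DCL2b* was 1.46, 1.52 and 1.47 times that of *DCL4* in WT and 6.16, 6.71 and 6.19 times in *kyp*. The ratio varied little within a genotype and was 4.28 times higher in *kyp*, which mostly restates the rise of *DCL2b*.

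**Figure D2:**
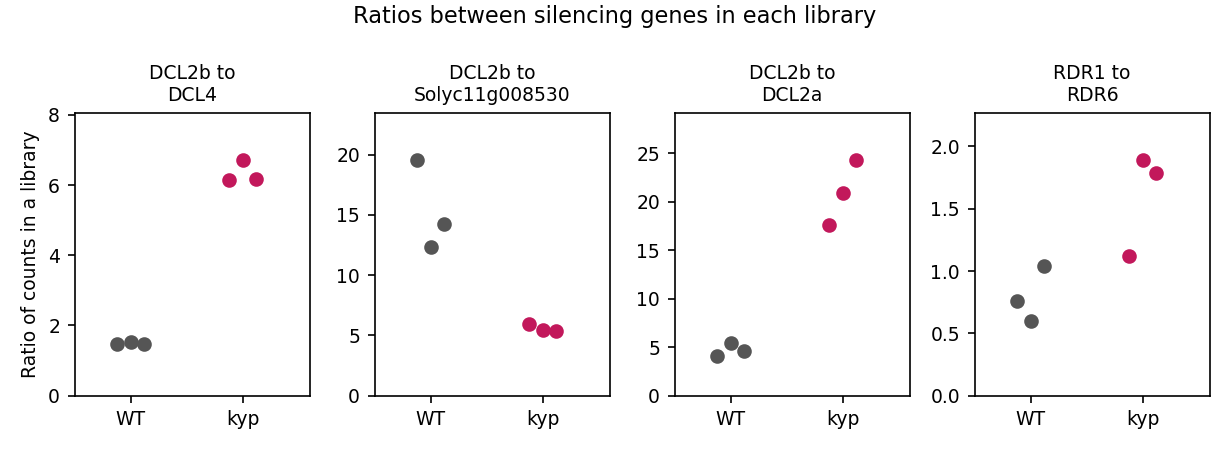
Ratio of the counts of 2 genes within each library (vertical axes, from 0) in WT and *kyp*, with each point a library. The ratio of *DCL2b* to *DCL4* was 1.46 to 1.52 in WT and 6.16 to 6.71 in *kyp*, and none of the 4 ratios overlapped between the genotypes.

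The 4 ratios and the 3 shares were compared by exact two-sided permutation tests. Each exact permutation test gave p = 0.1, which is the smallest value that 3 libraries against 3 allow and which Benjamini-Hochberg adjustment left at 0.1. The design therefore cannot bring any of them under 0.05. The 4 ratios were not planned beforehand. The result for *RDR1* to *RDR6* was fixed in advance, since both genes already separated the genotypes in opposite directions.

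*RDR1* (Solyc05g007510.4) encodes an RNA-dependent RNA polymerase that in other plants is induced by salicylic acid and viruses. It had 686, 693 and 767 counts in WT and 650, 1002 and 1207 in *kyp*, or 75.1, 61.0 and 85.6 CPM against 91.3, 110 and 119 CPM. The lowest *kyp* library was above the highest WT library by less than the SD of either genotype. The means were 73.9 ± 12.3 CPM (SD, n = 3) and 107 ± 14.3 CPM. In *kyp* against WT the log2 fold change was 0.54 ± 0.14 (SE), from 0.21 to 0.87 at 95%, with an adjusted p of 0.0270 (edgeR). Leaving out 1 library ended this call in 3 of 6 fits, with an adjusted p of 0.0776 without WT replicate 1, 0.0847 without WT replicate 2 and 0.0954 without *kyp* replicate 3, while the log2 fold change stayed between 0.42 and 0.66.

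*RDR6* (Solyc04g014870.3) makes the double-stranded precursors of secondary small interfering RNAs and moved in the opposite direction. It had 904, 1154 and 737 counts in WT and 578, 530 and 675 in *kyp*, or 98.9, 102 and 82.2 CPM against 81.2, 58.1 and 66.8 CPM. The highest *kyp* library was just below the lowest WT library. The means were 94.3 ± 10.5 CPM (SD, n = 3) and 68.7 ± 11.7 CPM. The log2 fold change was -0.46 ± 0.14 (SE), from -0.77 to -0.14 at 95%, with an adjusted p of 0.0413 (edgeR). The call was lost in 4 of 6 fits with 1 library left out, with an adjusted p of 0.117 without WT replicate 1, 0.127 without WT replicate 2, 0.0825 without *kyp* replicate 2 and 0.117 without *kyp* replicate 3. Within libraries the count of *RDR1* was 0.759, 0.601 and 1.04 times that of *RDR6* in WT and 1.12, 1.89 and 1.79 times in *kyp*, so that the genotypes did not overlap but came close. This follows from the levels of *RDR1* and *RDR6*, each of which did not overlap, and adds no separate evidence.

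*NRPE1* (Solyc01g096390.4), the largest subunit of Pol V, had 964, 1087 and 732 counts in WT and 907, 919 and 1169 in *kyp*, or 105, 95.7 and 81.7 CPM against 127, 101 and 116 CPM. The second *kyp* library lay within the range of WT. Its log2 fold change was 0.28, from -0.00065 to 0.56 at 95%, with an adjusted p of 0.134 (edgeR), so a level of up to 1.48 times that of WT was within its error.

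**Figure D3:**
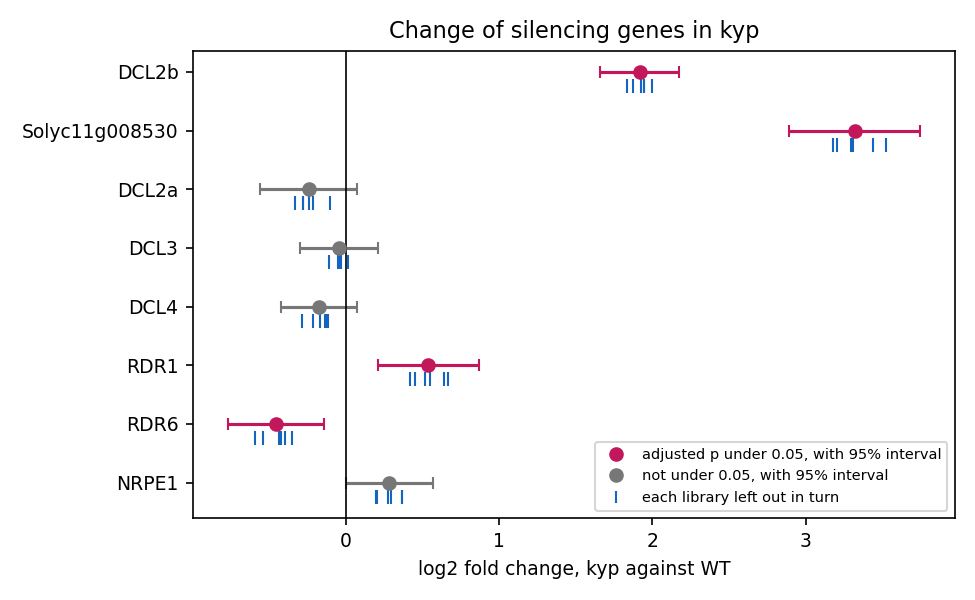
Log2 fold change in *kyp* against WT (horizontal axis) with its 95% interval for the 7 tested genes of the list and Solyc11g008530, and, as blue marks under each, the values with each library left out in turn. *DCL2b* stayed between 1.83 and 2.00 and Solyc11g008530 between 3.18 and 3.52, while the value of *DCL3* crossed 0.

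Tomato identifiers are numbered along each chromosome, and the count table follows them except for some rows. For example, Solyc06g084625.1 and Solyc04g150173.1 were among the 5 rows before *DCL4*. The rows listed next to a gene were compared with it. Within 6 rows on each side of Solyc11g008530, the 6 tested genes other than *DCL2b* had log2 fold changes between -0.07 and 0.28, and 0 of them passed the test, the lowest adjusted p being 0.0919 (edgeR). Within 15 rows, 3 of 19 passed it, 2 higher and 1 lower, with values from -0.62 to 0.93. The changes of *DCL2b* and Solyc11g008530 lay above all of these. Around all 8 genes, rows within 5 on each side were each counted once. Of 45 tested rows, 12 (26.7%) had an adjusted p under 0.05, near the 24.9% of all tested genes. Of the 12 rows, 9 were higher and 3 lower, where 14.8% of all tested genes were higher and 10.2% lower. Solyc11g008530 is among the 9.

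**Figure D4:**
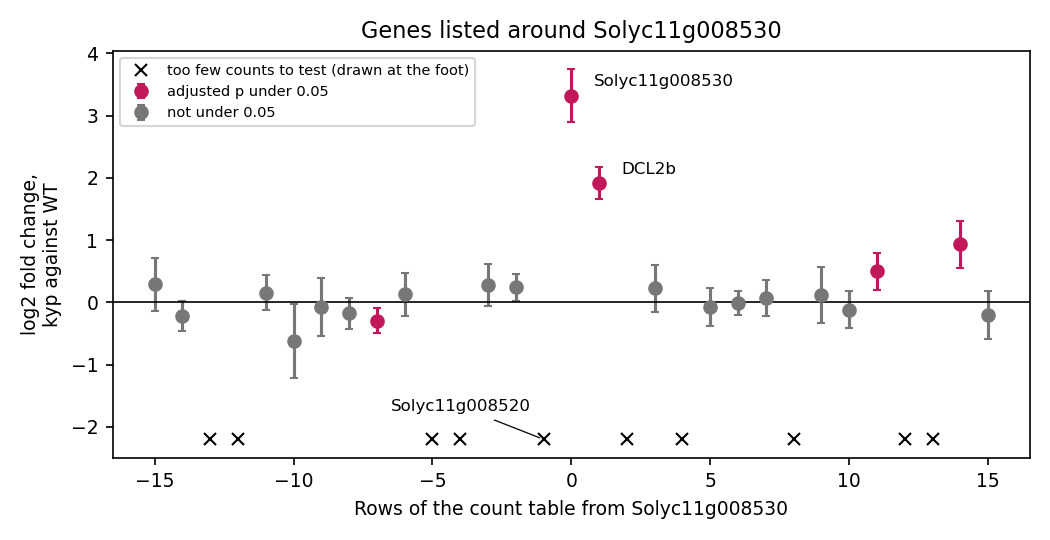
Log2 fold change in *kyp* against WT with its 95% interval (vertical axis) for the genes listed up to 15 rows before and after Solyc11g008530 (horizontal axis, in rows of the count table). Solyc11g008530 at 3.32 and *DCL2b* at 1.92 rise above the neighbouring tested rows, which lie between -0.62 and 0.93, and crosses at the foot mark rows with too few counts to test.

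Rows directly beside a gene of the list passed the test in some cases. Solyc05g007520.1, the row after *RDR1*, had no count in WT and 70, 29 and 30 counts in *kyp* (adjusted p of 0.00383, edgeR), while Solyc05g007500.4, the row before *RDR1*, had 561, 689 and 544 counts in WT and 337, 431 and 475 in *kyp* (adjusted p of 0.00973, edgeR). The rows directly beside *RDR1* thus changed in opposite directions. With no count in WT, Solyc05g007520.1 was kept by the filter only through its counts in *kyp*, which limits its test. Within 5 rows on each side of *RDR1*, 8 rows were tested, of which 1 was higher and 3 were lower in *kyp*. Around *RDR6*, which fell, 2 of 5 tested rows were higher and 0 lower. Their log2 fold changes were 4.08 and 4.35, the first from 0, 4 and 4 counts in WT. Large changes were thus also listed near genes other than *DCL2b*. Solyc07g005020.3, the row before *DCL4*, had 204, 250 and 217 counts in WT and 574, 502 and 580 in *kyp*, a log2 fold change of 1.49 with an adjusted p of 0.000272 (edgeR), beside no call for *DCL4*. The library kit keeps the strand, but the strand setting used in counting is not given in the sources used here, so reads of overlapping neighbours on opposite strands may not be told apart.

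Other silencing genes were taken as a list of 13 identifiers written from general knowledge of tomato argonautes and partners of Dicer and RDR proteins, with Solyc11g008530 among them. No source used here pairs them with names, so they are described by identifier. Of the 13, all tested, 3 were higher in *kyp* and 0 lower, against 14.8% and 10.2% of all tested genes, and the median log2 fold change was 0.26 against -0.0070. Solyc11g008530 is among the 3, and 12 identifiers remain without it. These numbers are too small to be read as a difference from the background. Besides Solyc11g008530, the genes higher in *kyp* were Solyc02g069260.3, with 121, 141 and 118 CPM in WT and 245, 218 and 252 CPM in *kyp*, and Solyc06g074730.4, with 11.3, 10.7 and 7.70 CPM in WT and 15.5, 14.3 and 15.3 CPM in *kyp*. Neither gene overlapped between the genotypes. Their log2 fold changes were 0.91 ± 0.11 (SE) and 0.60 ± 0.16, with adjusted p of 0.000476 and 0.0281 (edgeR). Without *kyp* replicate 2, 6 of the 13 passed the test, all higher. Only 2 passed without WT replicate 2, WT replicate 3, *kyp* replicate 1 or *kyp* replicate 3. The 10 that were not called with all libraries had log2 fold changes from -0.0087 to 0.53.

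The genes with the pattern most like that of each changed gene were found by Pearson's r of log2(CPM + 1) over the 6 libraries. The difference between genotypes dominates this measure for *DCL2b*, while for *RDR1* and *RDR6* the spread within a genotype also counts. Most alike to *DCL2b* were Solyc12g010950.2 (r = 0.9998), with 1.75, 1.50 and 1.12 CPM in WT and 27.5, 34.0 and 43.0 CPM in *kyp*, and Solyc03g122350.3 (r = 0.999), with 18.4, 17.6 and 13.6 CPM in WT and 137, 188 and 210 CPM in *kyp*. As many as 1216 tested genes had an r over 0.95 with *DCL2b*, against 110 for *RDR1* and 125 for *RDR6*, so a pattern of this kind was shared by many genes. For *RDR1* the most alike were Solyc01g099980.4 (r = 0.997) and Solyc11g068540.2 (r = 0.993), and for *RDR6* Solyc03g116480.1 (r = 0.997) and Solyc03g082590.4 (r = 0.989). The library of each genotype that was lowest for *RDR1* or *RDR6* was also the lowest for the genes named beside it. Those genes were picked for likeness over the same 6 libraries, so this shared order adds no separate evidence.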

How the data were processed

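For each of the 6 leaf libraries the authors deposited raw read counts by gene, not normalized. They trimmed reads with Trimmomatic 0.38. The paper's methods describe mapping to the M82 genome with Bowtie2 and the removal of duplicates and poorly mapped reads, whereas the submitters' processing notes list HISAT2 2.2.1, SAMtools 1.9 and featureCounts. Which of these made the counts, and the strand setting, are not given in the sources used here. A mapper that does not split reads at introns, the removal of duplicates and the loss of reads shared by similar genes could each lower counts.

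Genotypes were compared with the quasi-likelihood test of edgeR 4.0.16 under R 4.3.3 (glmQLFit, glmQLFTest), TMM and filterByExpr (minimum count 10, minimum total 15) on all 6 libraries, with genotype as the only factor and Benjamini-Hochberg adjustment over all tested genes at 0.05. The SE is the log2 fold change divided by the square root of the F statistic. The fits were tested on simulated data with the same spread for every gene and changes planted only in genes that were not low. The simulation therefore does not cover rows as low as Solyc11g008520. The members and lists were chosen with earlier results of these data known, so their choice was not independent of expression. The genes named are the 8 found, Solyc11g008530, the 2 genes most alike in pattern for each called gene, called genes of the silencing list, and called rows directly beside a gene. Gene names come from the list of members, and the gene table matched 214 organelle identifiers and 0 nuclear ones. Transcript lengths and sequences were not used here. The shares and ratios of counts are therefore not corrected for length and do not rank the levels of different genes. Libraries of a genotype differed by more than sampling noise (chi-square per degree of freedom 4.56 to 11.7). The alternatives were DESeq2 1.42.0, limma-voom (limma 3.58.1), other scalings and filters, a replicate block, a 2-fold minimum and leaving out each library.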

Additional observations from a re-analysis of the deposited data

How the results depend on the processing

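The call and direction of *DCL2b* held under every alternative, with a log2 fold change between 1.86 and 2.06 over the other tools, scalings, filters, the replicate block and the summed rows, and between 1.83 and 2.00 with each library left out. Solyc11g008530 stayed between 3.18 and 3.52 with each library left out. *RDR1* lay between 0.42 and 0.66 and *RDR6* between -0.59 and -0.35 when a library was left out, and both kept their call under the other tools, scalings and filters, where the highest adjusted p was 0.0368 for *RDR1* and 0.0497 for *RDR6* (edgeR, DESeq2 or limma). *DCL3*, not called, lay between -0.11 and 0.013 and changed sign without WT replicate 1 (0.013). The genes of the list that passed were 2 to 4 with a library left out, with 2 or 3 higher and 0 or 1 lower. These counts include Solyc11g008520, which the filter kept, through its counts in *kyp*, in 4 of the 6 fits (without WT replicate 1, 2 or 3 and without *kyp* replicate 3), each time with an adjusted p of 0.00590 to 0.0137 (edgeR). Without it the counts were 1 to 3, and *DCL2b* alone passed without WT replicate 1, WT replicate 2 or *kyp* replicate 3. With a 2-fold minimum 1 passed, 1 higher and 0 lower. Among all genes, 5028 (2982 higher, 2046 lower) became 2352 (1762 and 590) with a 2-fold minimum, and 3538 to 5431 (2265 to 3228 and 1211 to 2203) with a library left out. Library totals alone gave 2681 higher and 2605 lower. The list of other silencing identifiers gave 2 to 6 calls, all higher. The causes were not tested. Adding Solyc11g008530 to the sum, chosen after seeing the data, moved the change in the share of *DCL2b* from 12.8 to 3.31 points.

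The replicate numbers come from the labels, and same-numbered libraries deviated together weakly (correlations 0.22, 0.066 and -0.080), so they were not taken as pairs, and not every library correlated best with its own number. The replicate block gave 4867 calls, 3 of them on the list, and a log2 fold change of 1.91 for *DCL2b*, and moved no call of a listed gene. Taken as differences between same-numbered libraries (replicate block), the shares changed by -13.0, 12.8 and 0.250 points and the log2 ratio of *DCL2b* to *DCL4* by 2.10, as without it. The ratio of *NRPD1* to *NRPE1* and the shares per coding length were not run, since *NRPD1* and lengths were not used here. Depth limits Solyc11g008520, with 10 to 12 counts in *kyp*.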
